A study of Homo sapiens with 4 samples.

Results

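The genes described here are the human long intergenic non-coding RNA genes that carry a LINC number as their symbol. LINC symbols are given to long non-coding RNA (lncRNA) genes that were first placed between other genes and have no name of their own, so the members share a naming rule and not a function. They were chosen from the deposited gene table as lncRNA genes named LINC followed by digits, with a mean normalized read count of at least 50 over all libraries. This rule kept 174 genes of the 2055 LINC lncRNA genes in the table, of which 1354 had any reads, and of 51740 rows in all.

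Nuclear and cytoplasmic RNA was sequenced from HEK293T, a transformed cell line of human embryonic kidney. The cells were wildtype and crosslinked with formaldehyde in both groups, and hypotonic lysis with NP-40 then parted nuclei from cytoplasm, with 2 biological replicates per fraction. Libraries were made from 400 ng of RNA with depletion of ribosomal RNA and a stranded kit. The fractions were compared by the study to ask where RNAs reside, beside the RNAs bound by the nuclear and the cytoplasmic poly(A) binding protein. The cells are a single line, and a value is a normalized read count, which is relative to other RNAs and not an amount per cell.

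A lncRNA is transcribed like a messenger RNA, is usually capped, and is often spliced and polyadenylated, but is not known to encode a large protein. An RNA that is spliced, cleaved at its 3′ end and exported is found in the cytoplasm, whereas RNAs that stay at their gene, are retained in the nucleus or decay there are found mostly in the nuclear fraction. Some LINC genes are known as hosts of microRNAs, some encode a small protein, and for most no role is established.

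The deposited table gives no value for a single library. Whole reads per library were recovered from the digits of its mean, for each of the 174 LINC genes and for 99.3% of the 32478 genes with reads. The library totals came to 24557526 and 21358080 reads for the nuclear and 24202721 and 21906603 for the cytoplasmic fraction. The libraries of a fraction are called A and B by their size factors, since their replicate numbers are not known. A normalized read count is the number of reads in a library divided by its size factor, and log2 fold changes are given as cytoplasmic over nuclear with their standard error (SE), so that a negative value means higher in the nuclear fraction.

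Of the lncRNAs listed as nuclear, 6 of the 9 tested were higher in nuclei and 2 in cytoplasm. Of those listed as cytoplasmic or ribosome-bound, 8 of the 11 tested were higher in cytoplasm and 1 in nuclei. TERC (1.68 ± 0.12 SE) was among the 8, but its place on that list is doubtful, so it is no check of the fractions. Both lists were drawn up for this report, and the placing of single genes, such as TERC and OIP5-AS1, was not checked. NEAT1, the scaffold of nuclear paraspeckles, had 5613 and 4627 normalized reads in the nuclear libraries and 606.2 and 596.3 in the cytoplasmic libraries. NORAD, which binds Pumilio proteins in the cytoplasm, had 1478 and 1699 in the nuclear and 7069 and 7511 in the cytoplasmic libraries. Against their listing, OIP5-AS1 (1.13 ± 0.10 SE) and TUG1 (0.91 ± 0.10) were higher in the cytoplasmic and CYTOR (-1.36 ± 0.11) in the nuclear fraction. The kidney and embryonic regulators PAX2 and LHX1, listed as markers of this line, had reads in every library. The line markers NEFL, NEFM and VIM, the nuclear MALAT1 and the messenger RNAs ACTB, EEF1A1 and RPLP0 had means over 10000, above which reads were not recovered.

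The label intergenic was compared with the GENCODE 44 annotation on hg38. All 174 identifiers were found there as lncRNA genes, and 143 did not overlap the span of a protein-coding gene. The remaining 31 did, 10 of them on the same strand. For 12 genes the later annotation gives another symbol, and 9 of these end in DT, which marks a transcript that starts beside a named gene and runs the opposite way. Thus LINC00894 is named EOLA2-DT, LINC01184 is SLC12A2-DT, LINC02163 is NIHCOLE and LINC01197 is LETR1 in the later annotation. The rule therefore gathers LINC-named genes, of which not all are intergenic, and they lie on 23 chromosomes, X included.

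The 3′ end of a transcript decides whether it can carry a poly(A) tail. The last 100 bases of the annotated GENCODE 44 transcript are therefore shown for some members that hold the hexamer AATAAA there. They come from both ends of the ranking, with 1 between. LINC02886, LINC00907 and LINC00310, at the top of the nuclear ranking, hold no AATAAA in their last 50 bases and are not shown. LINC02381 and LINC01003 were among the most cytoplasmic, LINC01473 and LINC02315 among the most nuclear, and LINC00641 was close to equal. Capitals mark AATAAA, the commonest polyadenylation signal, read on the transcript strand.
LINC02381: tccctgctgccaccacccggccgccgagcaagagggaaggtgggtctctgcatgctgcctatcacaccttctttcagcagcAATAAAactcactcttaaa
LINC01003: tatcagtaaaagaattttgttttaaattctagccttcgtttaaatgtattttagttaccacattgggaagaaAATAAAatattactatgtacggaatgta
LINC00641: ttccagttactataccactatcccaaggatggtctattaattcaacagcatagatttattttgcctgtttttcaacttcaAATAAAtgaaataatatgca
LINC02315: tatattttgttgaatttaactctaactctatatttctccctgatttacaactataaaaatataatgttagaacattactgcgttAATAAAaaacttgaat
LINC01473: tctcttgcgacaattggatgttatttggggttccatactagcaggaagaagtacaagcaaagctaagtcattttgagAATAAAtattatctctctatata
The hexamer ends 13 bases before the annotated end in LINC02381, 22 in LINC01003, 14 in LINC00641, 10 in LINC02315 and 17 in LINC01473. Over all members, the last 50 bases held AATAAA in 63 of 174 (36.2%), and in 36.1% of the 18866 lncRNA genes in the annotation. It was present in 8 of the 23 members called cytoplasmic (34.8%) and in 48 of the 131 called nuclear (36.6%). With ATTAAA counted as well, the shares were 52.2% and 45.8%. Transcripts of protein-coding genes with a mean of at least 50 held AATAAA in 67.0%. A missing match says only that these letters are not in the last 50 annotated bases, and lncRNA ends are often incompletely annotated.

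Of the 174 LINC genes, 131 (75.3%) were higher in the nuclear fraction and 23 (13.2%) in the cytoplasmic fraction, at a limma adjusted p of at most 0.01 over all 22020 genes tested, and 20 were not called. Over all genes tested, 35.9% were higher in nuclei and 31.5% in cytoplasm, 67.4% in all. Among the 13660 tested genes with a mean of at least 50, the minimum that the LINC genes met, 39.9% were higher in nuclei and 42.4% in cytoplasm, 82.3% in all, so that the share of LINC genes called in either direction was close to this background. The median log2 fold change of the LINC genes was -2.75, with a median SE of 0.24, against -0.16 over all genes tested and 0.06 over those with a mean of at least 50. In a setting called equal library totals, the authors' size factors were kept within a fraction. Those of the cytoplasmic libraries were scaled by a common factor to give both fractions the same normalized total. Every log2 fold change then moved by -0.66, the LINC median was -3.41, and 144 LINC genes were higher in nuclei and 16 in cytoplasm. A change of over 4-fold was seen in 103 genes called nuclear and in 4 called cytoplasmic, and 35 were over 16-fold higher in the nuclear fraction. In reads, the 174 genes took 6480 and 6320 per 1000000 in the nuclear libraries and 945 and 908 per 1000000 in the cytoplasmic libraries.

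The minimum mean bears on these counts. For 81 of the 174 genes the cytoplasmic mean was under 50, so they entered through the nuclear fraction and had to differ, and 9 entered through the cytoplasmic fraction alone. Among the 84 genes with a mean of at least 50 in both fractions, 52 were higher in the nuclear fraction, 15 in the cytoplasmic fraction and 17 in neither, and the median was -1.16. At the minimum itself, LINC02731, LINC00240 and LINC01783 lay just inside with means of 51.1, 51.7 and 52.0, and log2 values of 0.88, -1.12 and 2.14. LINC01224, LINC01397 and LINC02208 lay just outside with means of 49.5, 48.8 and 48.7, and values of 0.13, -3.39 and -5.69. The 502 LINC genes with a lower mean that could be tested had a median of -1.45, with 196 higher in nuclei and 31 in cytoplasm.

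**Figure D1:**
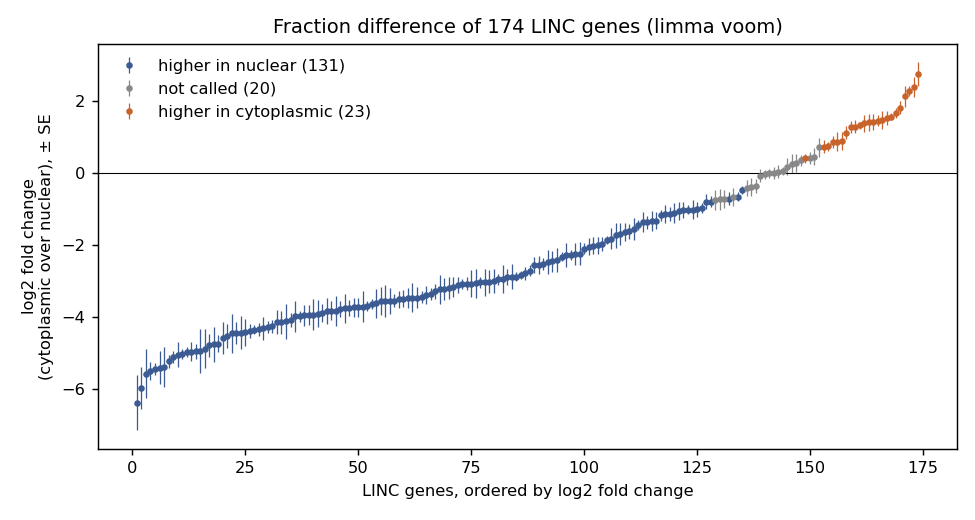
The log2 fold change of each of the 174 LINC genes (vertical axis, cytoplasmic over nuclear, bars show the SE of the fit over 4 libraries) is plotted in rank order (horizontal axis) and coloured by its call at an adjusted p of at most 0.01. The 131 genes called nuclear run from -6.39 to -0.46 and the 23 called cytoplasmic from 0.41 to 2.75.

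The spread between the libraries of a fraction was small beside most of these differences. Among the 173 members with at least 20 reads in both nuclear libraries, the normalized counts of A and B differed by a median of 0.15 on the log2 scale and at most 0.90, in LINC01003. Among the 120 with as many in both cytoplasmic libraries, the median difference was 0.21 and the largest 0.90, in LINC02582. The libraries of the fractions did not overlap for 165 members, 137 of them higher in the nuclear fraction, where 87.4% of all genes tested did not overlap. That share includes genes with a mean under 50, and it was not counted for those above the minimum alone. All 154 called genes were among the 165, as were 11 of the 20 that were not called. In 22 members the cytoplasmic libraries held fewer than 20 reads together, so their fold changes are less precise.

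The members with the largest nuclear differences ranged from short genes to the longest of all. LINC02886, on chr8:75167704-75176656 of hg38, had 138.0 and 138.7 normalized reads in the nuclear libraries and 3.52 and 0 in the cytoplasmic libraries. Its cytoplasmic value rests on 3 reads in all against 350 nuclear reads, a ratio of 74.1 with an exact 95% interval of 25.2 to 361, which covers counting error only. The nuclear libraries lay far above both cytoplasmic libraries. LINC00907, which spans 532 kb between other genes on chromosome 18, had 231.2 and 228.7 in the nuclear and 2.35 and 3.98 in the cytoplasmic libraries, and the log2 fold change was -5.98 ± 0.58 (adjusted p = 9.83e-11, limma).

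LINC01505 spans 748 kb on chromosome 9, the greatest length among the members. Its normalized counts were 1785 and 1557 in the nuclear and 37.5 and 34.5 in the cytoplasmic libraries (-5.51 ± 0.25, limma adjusted p = 1.23e-18). LINC01473, which starts 248 bases from ZC3H15 on chromosome 2 and spans 453 kb, had 4116 and 3977 in the nuclear and 93.8 and 90.1 in the cytoplasmic libraries (-5.45 ± 0.17, limma adjusted p = 4.50e-22). Neither gene had a library that came near the other fraction, and both carry the AATAAA hexamer at their annotated end. LINC02315 on chromosome 14, with its nearest coding gene LRFN5 458 kb away, had 2946 and 2686 in the nuclear and 75.04 and 72.89 in the cytoplasmic libraries (-5.24 ± 0.19, limma adjusted p = 7.64e-21).

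LINC01355 differed from these in its structure. It is 6.18 kb long, with 2 exons, on chr1:23281307-23287488, and had 510.8 and 575.2 in the nuclear and 19.9 and 11.9 in the cytoplasmic libraries, a log2 fold change of -5.06 ± 0.35 (limma adjusted p = 3.16e-14). Per kb of its length, LINC01355 had 87.8 normalized reads in the nuclear fraction, against 8.93 for LINC01473 and 14.5 for LINC02315. The rest of the 10 largest nuclear differences were LINC00310, LINC00159, LINC01611 and LINC00894, at -5.58 to -5.13, and their nuclear libraries all lay above their cytoplasmic ones. Of these, LINC00310 rested on few cytoplasmic reads, with normalized counts of 1.17 and 6.63. Leaving out 1 cytoplasmic library moved LINC02886 to -7.71 or -5.08, LINC00310 to -4.51 or -6.56 and LINC01611 to -4.71 or -6.02, so the order among the largest nuclear differences is not settled.

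The largest cytoplasmic difference was that of LINC01522, a gene of 4 exons on chr20:47976739-47990127. It had 14.9 and 12.6 normalized reads in the nuclear and 109.0 and 80.8 in the cytoplasmic libraries, and the log2 fold change was 2.75 ± 0.33 (limma adjusted p = 1.15e-08). LINC01003, a gene of 1 exon on chr7:152463786-152465549, had 19.4 and 36.2 in the nuclear and 133.7 and 145.8 in the cytoplasmic libraries (2.40 ± 0.27, limma adjusted p = 3.48e-09). In both genes each cytoplasmic library was above each nuclear library, although the nuclear libraries of LINC01003 were the farthest apart of any member with 20 reads in both. Both genes had a nuclear mean under 50, so they entered through the cytoplasmic fraction alone and had to differ.

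LINC02381, which overlaps SMUG1 beside the HOXC genes on chr12:54126019-54147485, was measured with more reads. Its normalized counts were 224.5 and 236.3 in the nuclear and 1089 and 1157 in the cytoplasmic libraries (2.28 ± 0.13, limma adjusted p = 1.93e-16). LINC01521, a gene of 1 exon beside PATZ1, had 91.0 and 78.2 in the nuclear and 310.7 and 286.2 in the cytoplasmic libraries (1.82 ± 0.18, limma adjusted p = 1.25e-10). LINC02693 stood apart among the cytoplasmic members by its length, 146 kb, and its level: it had 727.8 and 750.1 in the nuclear and 2141 and 2252 in the cytoplasmic libraries (1.57 ± 0.11, limma adjusted p = 1.92e-14). It alone held 8.26% of the normalized cytoplasmic reads of all 174 members and 0.636% of the nuclear ones.

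The other 5 of the 10 largest cytoplasmic differences were LINC01783, LINC00863, LINC01719, LINC00667 and LINC01547, at 2.14 to 1.46, each with no overlap between the fractions. LINC01783 and LINC00667 had nuclear counts under 50 in each library, so they entered through the cytoplasmic fraction alone. LINC01783 and LINC01719 lie near NBPF genes, LINC00863 overlaps NUTM2D and LINC02693 lies near KCNJ12, families with near-identical copies in the genome, so the split of reads among those copies is uncertain. LINC00205, on chromosome 21 beside POFUT2, had 566.8 and 630.7 in the nuclear and 1523 and 1470 in the cytoplasmic libraries (1.33 ± 0.11, limma adjusted p = 3.38e-12). Per kb of length, LINC00205 and LINC01521 had the highest cytoplasmic levels of the members, at 153.1 and 153.6 normalized reads.

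**Figure D2:**
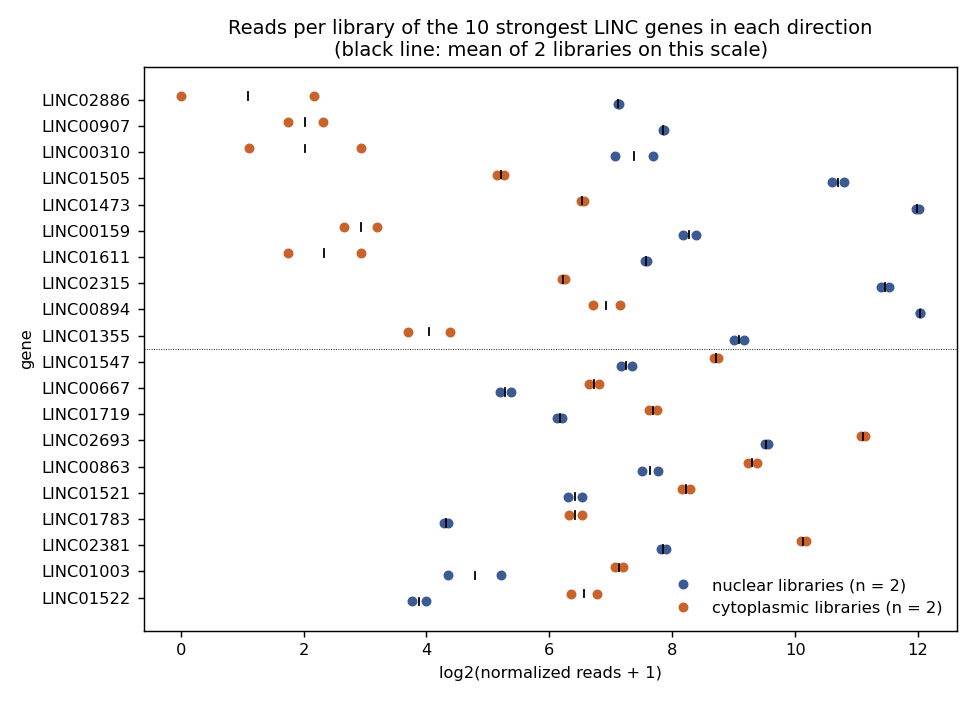
Normalized reads in each of the 4 libraries are shown on a log2(value + 1) axis for the 10 LINC genes with the largest differences in each direction, nuclear above the dotted line and cytoplasmic below it. Points are libraries (2 per fraction), black lines their mean on this scale, and in all 20 genes the points of the fractions are apart. Genes with a mean under 50 in 1 fraction entered through the other and had to differ.

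The members with the highest means were mostly nuclear. LINC01515, 32.2 kb from CTNNA3 on chromosome 10, had the highest mean, 5217. Its normalized reads were 9264 and 9043 in the nuclear and 1319 and 1244 in the cytoplasmic libraries (-2.84 ± 0.10, limma adjusted p = 3.25e-21). LINC02163, named NIHCOLE for its part in DNA end joining in liver cancer cells, had 7395 and 6653 in the nuclear and 224.0 and 201.4 in the cytoplasmic libraries (-5.04 ± 0.14, limma adjusted p = 2.80e-23). LINC01876 had 6637 and 6290 in the nuclear and 224.0 and 184.2 in the cytoplasmic libraries, and LINC01572 had 5839 and 5220 against 247.4 and 294.2. In each of these genes the nuclear libraries were several times above the cytoplasmic ones. LINC00630 (-2.88 ± 0.12) and LINC00894 (-5.13 ± 0.16) completed the nuclear genes among the 10 highest means that are not described above, while LINC00665 was in neither group. The 5 members with most nuclear reads held 27.9% of the members' normalized nuclear reads.

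**Figure D3:**
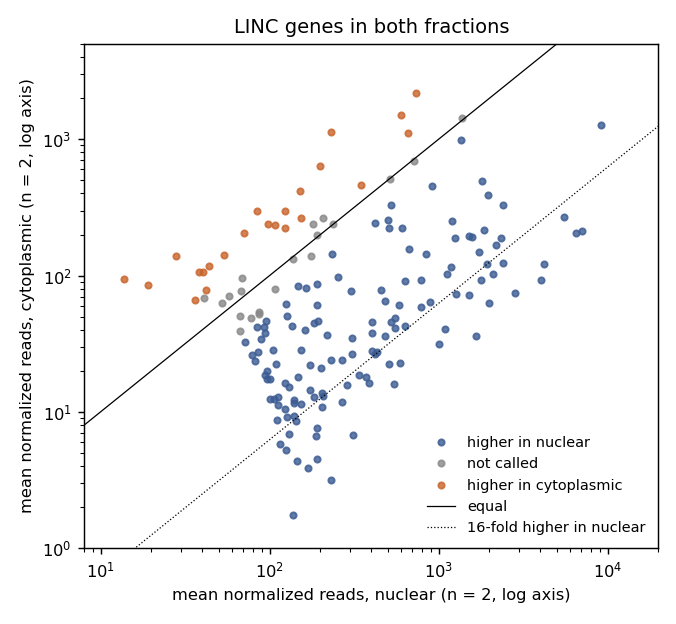
The mean normalized reads of each LINC gene in the cytoplasmic fraction (vertical, log axis) are plotted against those in the nuclear fraction (horizontal, log axis), each a mean of 2 libraries. Most points lie under the line of equal values, and 35 genes called nuclear were over 16-fold higher there, which is the dotted line.

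Of the 26 LINC genes listed for a known product, host or role, 12 were members, and 3 of these were higher in the cytoplasmic, 5 in the nuclear fraction and 4 in neither. LINC00472, the host of 2 members of the miR-30 family, had 1940 and 1512 normalized reads in the nuclear and 132.5 and 163.0 in the cytoplasmic libraries (-3.55 ± 0.17, limma adjusted p = 5.75e-18). LINC00461, the host of a copy of miR-9, which acts in the developing nervous system, had 104.4 and 81.6 in the nuclear and 41.0 and 42.4 in the cytoplasmic libraries (-1.14 ± 0.26, limma adjusted p = 2.85e-04). Both hosts were higher in the nuclear fraction with no overlap, but LINC00461 had a cytoplasmic mean under 50 and so entered through the nuclear fraction alone. The mature 5′ arms are given from RefSeq (GRCh38.p14), with the seed, bases 2 to 8, in capitals, since they identify which miRNA family each host carries. The 2 arms in LINC00472 share their seed.
hsa-miR-30a-5p: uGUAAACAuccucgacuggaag
hsa-miR-30c-5p: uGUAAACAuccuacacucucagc
hsa-miR-9-5p: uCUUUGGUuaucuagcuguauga
The miRNAs lie on the minus strand at chr6:71403595-71403616, chr6:71377003-71377025 and chr5:88666902-88666924. The gene counts include introns and say nothing of the mature miRNA. In all, 5 members hold a small RNA gene, the other 3 being LINC01505, LINC01138 and LINC00960.

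LINC00511, described as an oncogenic lncRNA in several tumours, had 543.6 and 419.6 in the nuclear and 76.2 and 53.0 in the cytoplasmic libraries (-2.89 ± 0.22). LINC01138, also studied in liver cancer, had 1928 and 1695 against 521.8 and 470.4 (-1.86 ± 0.12), and lies among duplicated sequence on chromosome 1. LINC00662 had 1430 and 1298 against 999.0 and 975.4 (-0.46 ± 0.11, limma adjusted p = 3.16e-04), a difference that was small but beyond the spread between libraries. On the cytoplasmic side stood LINC00205 and LINC00667, and LINC01128 was called at 0.41 ± 0.13 (limma adjusted p = 0.00717), a call that was lost, at -0.25, with equal library totals.

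A few members with many reads were near equal in both fractions. LINC00641 had 472.1 and 560.9 normalized reads in the nuclear and 503.0 and 516.8 in the cytoplasmic libraries (-0.01 ± 0.13). LINC00665 had 1308 and 1429 against 1423 and 1435 (0.07 ± 0.10), and LINC00839 had 755.4 and 672.7 against 699.99 and 690.43 (-0.04 ± 0.12). The fractions overlapped in each of them. LINC00649 (0.01 ± 0.16) and LINC00467 (0.04 ± 0.18), whose transcript is known to encode a small mitochondrial protein, overlapped too, and LINC01234 stood at 0.36 ± 0.15 with no overlap and no call. With equal library totals, LINC00641, LINC00665, LINC00839, LINC00649 and LINC00467 were called higher in the nuclear fraction, and centred on the median of protein-coding genes they stood between -0.12 and -0.02 and were not called.

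Gene length ran with the fold change across the members. The Spearman correlation of the span, from the first to the last annotated base, with the log2 fold change was -0.602 across the 174 genes, and that of intron length -0.617. Exonic length had a correlation of 0.031 and the number of exons in the canonical transcript one of -0.413. Among the 84 genes with a mean of at least 50 in both fractions, which the minimum did not force to differ, the correlations were -0.695 with span, -0.704 with intron length, -0.001 with exonic length and -0.476 with the number of exons. These describe genes that share the same 4 libraries, and the reads over introns counted toward each gene. The correlation with span was -0.656 across 1090 other lncRNA genes and -0.705 across 11911 protein-coding genes with a mean of at least 50.

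By span, the 29 LINC genes of up to 10 kb had a median log2 fold change of 0.26, with 11 called cytoplasmic and 9 nuclear. The 38 genes of 10 to 50 kb had a median of -1.73, with 9 called cytoplasmic and 25 nuclear. In the 56 genes of 50 to 150 kb the median was -2.80, with 3 called cytoplasmic and 48 nuclear, and in the 51 genes over 150 kb it was -3.74, with none called cytoplasmic and 49 nuclear. The 2 genes over 150 kb that were not called were LINC01234 and LINC01006, named here after their values were seen. With equal library totals, the median of the genes of up to 10 kb would fall below 0. Among the 84 genes above the minimum in both fractions, the medians of the same 4 classes were 0.42 (15 genes), -0.66 (17), -1.53 (30) and -3.84 (22).

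Other lncRNA genes with a mean of at least 50 had medians of 0.78, -1.44, -2.60 and -3.62 in the same 4 length classes, and protein-coding genes had 1.93, 0.65, -0.42 and -1.72. Across the length classes the LINC median lay 0.12 to 0.52 below that of other lncRNAs and 1.67 to 2.38 below that of protein-coding genes. All 174 members entered these medians, 81 of them with a cytoplasmic mean under 50. The median of the mean counts was 162 for the LINC genes, 130 for other lncRNA genes and 853 for protein-coding genes. The comparison medians were not computed for genes above the minimum in both fractions. Whole classes differed as well in length, with a median span of 79.8 kb for the LINC genes, 34 kb for other lncRNA genes and 38.1 kb for protein-coding genes. These medians were not tested against each other.

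**Figure D4:**
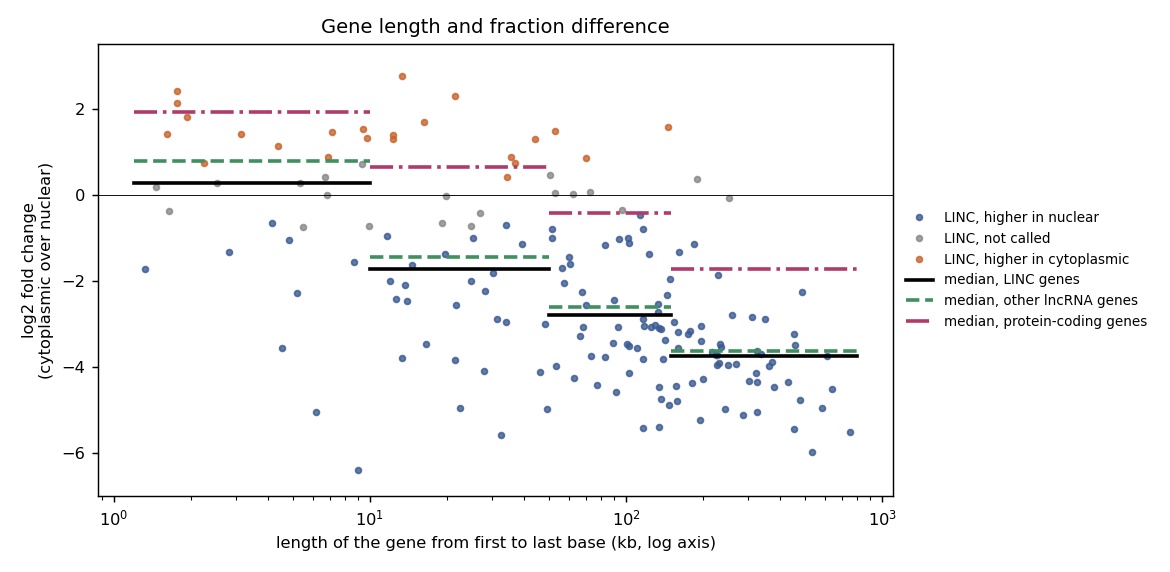
Each point is a LINC gene, with its span in kb on a log axis (horizontal) and its log2 fold change, cytoplasmic over nuclear (vertical), coloured by its call. Horizontal lines are the medians of the LINC genes, other lncRNA genes and protein-coding genes with a mean of at least 50 in 4 length classes, and the LINC median falls from 0.26 in the shortest to -3.74 in the longest class.

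Members called cytoplasmic spanned 1.62 to 146 kb with a median of 12.3 kb, and those called nuclear 1.33 to 748 kb with a median of 117 kb. Their exons covered a median of 4618 and 4565 bases, so the classes differed in introns more than in exons. Of the 9 members whose canonical transcript has 1 exon, 4 were called cytoplasmic (LINC01003, LINC01521, LINC01963 and LINC00235), 1 nuclear (LINC00852) and 4 neither. Of the 47 members with 6 or more exons, none was called cytoplasmic and 44 were called nuclear. Above the minimum in both fractions there were 24 with 6 or more exons, of which 21 were called nuclear and none cytoplasmic, and 5 with 1 exon, of which 2 were called cytoplasmic and none nuclear.

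Short genes were found on both sides. LINC02595, 4.53 kb long and 596 kb from its nearest coding gene, KRBOX4, had a log2 fold change of -3.55 ± 0.36 (limma adjusted p = 2.12e-10). LINC01786, 5.2 kb long near SCNN1D, stood at -2.27 ± 0.33 (limma adjusted p = 3.63e-07). LINC02593, 4.15 kb long near SAMD11, had the highest nuclear level per kb, 125.8 normalized reads, and 79.8 per kb in the cytoplasmic fraction, at -0.66 ± 0.13 (limma adjusted p = 5.59e-05). LINC02846, 1.62 kb long near TMEM250, stood at 1.42 ± 0.22 (limma adjusted p = 1.20e-06), and LINC01963, 3.15 kb long near XRCC5, at 1.41 ± 0.23 (limma adjusted p = 3.40e-06). These 5 genes were named after their values were seen. They show that genes of like length took opposite calls, but the minimum bears on this. LINC02595 had a cytoplasmic mean of 14.5, and that of LINC01786 was under 50 as well, so both entered through the nuclear fraction alone. Among the 15 genes of up to 10 kb with a mean of at least 50 in both fractions, 7 were called cytoplasmic, 1 nuclear (LINC02593) and 7 neither.

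Place in the genome ran less closely with the fold change than length did. The Spearman correlation of the distance to the nearest coding gene with the log2 fold change was -0.28 across the 174 genes. It was -0.18 across the 84 genes above the minimum in both fractions, and the class medians did not fall steadily with distance. The 41 members over 100 kb from a coding gene had a median of -3.74, with 39 called nuclear and 1 cytoplasmic, which was LINC01522. The 83 members 1 to 100 kb away had a median of -1.83, and the 19 within 1 kb one of -2.27. The 31 members that overlap a coding gene had a median of -2.26, with 22 called nuclear and 5 cytoplasmic, and their counts leave out the shared stretches. Above the minimum in both fractions, 11 members lay over 100 kb from a coding gene, with a median of -3.36. In the same set, 44 lay 1 to 100 kb away, with a median of -0.84, and 10 lay within 1 kb, with a median of -1.18. The 19 that overlap a coding gene had a median of -1.86. The most isolated class was also long, with a median span of 137 kb against 51.6 kb for those 1 to 100 kb away, and the parts of length and distance cannot be told apart by these medians.

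Short words linked to nuclear retention by earlier work were counted in the exons of the canonical transcripts. The words ACCTCCC and GCCTCCC, from a C-rich element found in Alu repeats, occurred together 0.686 times per kb in the members called cytoplasmic, 0.451 in those called nuclear and 0.449 in other lncRNAs with a mean of at least 50. The word AGCCC occurred 1.84, 1.17 and 1.25 times per kb in the same order. Only the transcript strand was searched. GC content had a median of 51.3% in the exons of members called cytoplasmic and 45.6% in those called nuclear. Its Spearman correlation with the log2 fold change across the 174 members was 0.374. Across the 84 genes above the minimum in both fractions it was 0.384. By these counts the words were no denser in the members called nuclear, many of which entered through the nuclear fraction alone. Word counts were not made for the 84 genes. The words are rich in C, and a link of the words or of GC content to retention was not tested.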

How the data were processed

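RNA of 2 nuclear and 2 cytoplasmic libraries of HEK293T cells was sequenced as paired reads of 100 nt. Per the study's methods and the labels, the authors aligned reads to hg38 with STAR and counted them over exons and introns with featureCounts 2.0.2, after removing stretches shared by genes from an extended GENCODE annotation. The authors deposited 1 table from DESeq2. Its mean is a signal, the normalized count averaged over all 4 libraries by the authors, and its fold change and standard error are on the log2 scale, deposited as the authors' comparison of cytoplasm over nucleus. No deposited comparison value is printed here.

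Whole reads per library were recovered from the deposited mean. A single read adds to the mean a step of 1 over the product of 4 and the size factor of its library. The 4 steps, read from genes with 1 read, gave size factors of 1.34 and 1.19 for the nuclear and 0.853 and 0.755 for the cytoplasmic libraries, assigned to fractions by the sign of the deposited fold change. Each of the 12172 means of 4 or less could be written as whole reads times these steps. For higher genes, sets of 4 whole numbers were listed that matched the mean to its last digit. The set closest to the deposited fold change was kept if it lay within a tolerance. The deposited standard error set the spread between libraries in this step. Means over 10000 (194 genes) were left out. For the LINC genes the match to the fold change was within 1.8e-06, and where other sets matched the mean (59 genes), the next was at least 706 times farther off. The match tolerances were settled after residuals of the real data were seen. In a simulation of 600 genes all 600 were returned rightly. It used the same model and size factors as the recovery, so it could not check whether that model holds for the deposited values. It also left out genes with fewer than 4 reads in a fraction, as LINC02886 has. Library totals were estimated with the reads of the left-out genes.

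The fraction of a library rests on the deposited fold change, and the choice among number sets on that fold change and its standard error. The recovered reads are therefore not independent of the deposited comparison. The reads were tested with limma 3.58.1 (R 4.3.3), with voom weights, library sizes set by the size factors and a minimum of 10 reads over the 4 libraries. P-values were adjusted by Benjamini-Hochberg over all 22020 genes, with calls at 0.01. In simulated data of 19418 genes, 85% of 100 genes changed 2-fold and 100% of 100 changed 4-fold were called, with 1 false call. Intervals cover counting error only.

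Positions, exons and transcript ends came from GENCODE 44 on hg38, a later release than the authors', matched by identifier, and miRNAs from RefSeq. The members and lists were chosen with earlier results of these data known. Named genes were the 10 largest called differences in each direction, the 10 highest means, 3 genes on each side of the mean of 50, the 6 smallest differences with a mean of at least 200, and listed genes. Alternatives tried were equal library totals, centring on protein-coding genes, limma trend with a prior count of 2, other minimums, a threshold of 0.05 and leaving out each library. Calculations used numpy 2.4.6, pandas 2.3.3 and scipy 1.17.1.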

Additional observations from a re-analysis of the deposited data

How the results depend on the processing

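With equal library totals the median LINC log2 fold change was -3.41, and LINC00467 (-0.62), LINC00649 (-0.65), LINC00665 (-0.60), LINC01128 (-0.25) and LINC01234 (-0.30) were below 0. All 131 nuclear calls were kept and 16 of the 23 cytoplasmic ones, and 13 members were gained, all higher in the nuclear fraction. Centred on the protein-coding median of 0.09, LINC00467 (-0.04), LINC00649 (-0.08) and LINC00665 (-0.02) changed sign. With a minimum mean of 100 in place of 50, 85 members were called nuclear and 14 cytoplasmic, with a median of -3.06. With a mean of at least 50 in each fraction, chosen after seeing the data, 52 were called nuclear and 15 cytoplasmic, with a median of -1.16, and the correlation with span was -0.695. Exonic length in place of span gave a correlation of 0.031 with the fold change.

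Without one library at a time, the median ran from -2.81 to -2.65, nuclear calls from 130 to 131 and cytoplasmic calls from 21 to 22. Without nuclear library A, LINC00467 stood at -0.16 and LINC00839 at 0.05, and without nuclear library B, LINC00649 stood at -0.18 and LINC00641 at 0.11. Without cytoplasmic library A, LINC00467 stood at -0.26, LINC00641 at 0.01 and LINC00649 at -0.11. None of these was called with or without the library. In 9 members, 3 of them named, 1 library moved the fold change by over 1.5 times, in each case a cytoplasmic one, without a change of sign. Without cytoplasmic library A and B in turn, LINC02886 stood at -7.71 and -5.08, LINC00310 at -4.51 and -6.56 and LINC01611 at -4.71 and -6.02. LINC01128, LINC02731 and LINC01703, called cytoplasmic, and LINC02482, LINC01504 and LINC01534, called nuclear, each lost their call when 1 library was left out, as did LINC00235. The lone library of a fraction is then assumed to vary like the other fraction. With limma trend, no minimum of reads, or 10 reads in 2 libraries, no named member changed sign.

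No paired analysis was possible because the replicate numbers of the recovered libraries are not known. With 2 libraries a fraction, precision is limited, and 22 members with under 20 cytoplasmic reads have the least certain fold changes.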

Other observations

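The 9 members that the later annotation names as divergent transcripts of a coding gene are described here by their calls. Of these, 7 were higher in the nuclear fraction, none in the cytoplasmic fraction and 2 in neither, with a median log2 fold change of -2.26, against 75.3% called nuclear and a median of -2.75 over all 174 members, so their share was close to that of the members as a whole. LINC00894 (EOLA2-DT) stood at -5.13 ± 0.16 and LINC00893 (EOLA1-DT), beside a paralog of the same coding gene, at -3.79 ± 0.22. LINC02062 (CHD1-DT) stood at -3.29 ± 0.21 and LINC01184 (SLC12A2-DT) at -2.33 ± 0.12. LINC01006 (RNF32-DT), at -0.07 ± 0.19, and LINC01715 (TAF12-DT), at 0.28 ± 0.25, were not called. LINC00893 and LINC00894 lie beside near-identical gene copies, so the split of reads between them is uncertain.

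By chromosome, every member was higher in the nuclear fraction on 6 of the 23 chromosomes, namely 4 (9 members), 5 (14), 6 (6), 8 (5), 15 (5) and X (6), where 75.3% of all members were. Chromosome 21, with 10 members, held 6 called nuclear and 3 called cytoplasmic, among them LINC00205 and LINC01547. Members with a cytoplasmic mean under 50 had to differ. On chromosome 4 they include LINC02269, LINC02615, LINC02506, LINC01088, LINC02232, LINC02466 and LINC02268. No count by chromosome was made for genes above the minimum in both fractions. The counts given were looked at after the values were seen and were not tested.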
